A study of Mus musculus with 45 samples.

Results

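Genes that the RAS to ERK pathway induces and that mostly act back on it, 10 in all, were described across 8 genotypes of a mouse glioblastoma model. They are the ERK phosphatase genes Dusp4, Dusp5 and Dusp6, the Sprouty genes Spry1, Spry2 and Spry4, the Sprouty-related genes Spred1 and Spred2, and the ETS transcription factor genes Etv4 and Etv5. They were chosen by symbol, and each gene took the value of its probe set with the highest mean over the 45 arrays. Of the 10 genes, 9 had a probe set among the 17097 genes named on the array, and those 9 were among the 11809 genes kept for testing. Dusp5 had no probe set under its own symbol and has no value here.

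The arrays measured total RNA from mouse brain, labelled as a glioblastoma model in the strain CD-1 nude, and all 8 genotypes lack p53. Per the series description, retroviruses carried wild-type PDGFRA or 6 mutant forms into cultured primary astrocytes from mice without p53. The PDGFRA mutant groups were E7 del with 3 arrays, C450 ins with 5, E10 del with 5, E10 del.v2 with 9, V544ins with 9 and D842V with 5, which makes 36 arrays. They were set against 8 arrays of EGFRvIII, a truncated EGF receptor, and a single array was labelled Pdgfra WT. The labels do not say whether arrays came from separate animals or cultures, so p-values measure only the spread between these arrays. The age of the animals and the promoter that drives the constructs were not given in the sources used here.

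Array titles carry numbers from 1 to 30 or from 41 to 64, and the labels do not say what the gap stands for. All EGFRvIII, E7 del and Pdgfra WT arrays had titles from 41 to 64, and all C450 ins, E10 del and D842V arrays had titles from 1 to 30. The numbers of V544ins and of E10 del.v2 were split, with 3 arrays each from 1 to 30 and 6 each from 41 to 64. All values are the authors' log2 signals after RMA, so a difference of 1 is a doubling of signal, and the array medians lay between 4.66 and 4.85. The mouse Pdgfra probe set had group means between 5.39 and 8.41 in the mutants and a mean of 7.22 ± 1.75 in EGFRvIII (SD, n = 8), and Egfr had group means between 5.0 and 6.63 in the mutants and 6.05 ± 1.30 in EGFRvIII. Whether these probe sets detect the retroviral transcripts was not tested. All 9 astrocyte markers listed were above the table median of 4.79 in each group, as were the 8 measured oligodendrocyte progenitor markers. The same held for all 12 microglia and macrophage markers, for 10 to 12 of the 12 measured neuron markers, and for all 11 measured myelin markers except in E7 del, with 8. This threshold therefore does not tell these cell types apart.

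Growth factor receptors such as PDGFRA and EGFR activate RAS, RAF, MEK and ERK in turn, and ERK switches on genes that restrain the same pathway. The nuclear phosphatases DUSP4 and DUSP5 and the cytoplasmic phosphatase DUSP6 remove phosphates from ERK. Sprouty proteins act near the receptor and Spred proteins help to inactivate RAS through neurofibromin, while ETV4 and ETV5 bind DNA at ETS sites and carry the signal to further genes. RNA of several of these genes is widely used as a readout of ERK output in tumours, gliomas included.

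RefSeq promoter windows, from 250 bases before to 50 after the start (build GRCm38.p6), were at hand for 7 of the 10 genes. Those of Dusp6 and Spry1, which were called lower in the PDGFRA mutants, and of Spry2, which was not, are shown 5′ to 3′. Matches to CCGGAA on either strand are in capitals. This is a longer form of the ETS core GGAA, and the core itself was not searched.
Dusp6 (chr10:99262981-99263280, plus strand): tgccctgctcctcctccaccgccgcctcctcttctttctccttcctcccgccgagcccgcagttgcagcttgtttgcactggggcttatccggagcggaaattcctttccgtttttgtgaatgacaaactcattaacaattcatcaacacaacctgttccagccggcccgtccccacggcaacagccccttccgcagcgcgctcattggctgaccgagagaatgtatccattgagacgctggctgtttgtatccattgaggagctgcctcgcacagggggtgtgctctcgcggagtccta
Spry1 (chr3:37639697-37639996, plus strand): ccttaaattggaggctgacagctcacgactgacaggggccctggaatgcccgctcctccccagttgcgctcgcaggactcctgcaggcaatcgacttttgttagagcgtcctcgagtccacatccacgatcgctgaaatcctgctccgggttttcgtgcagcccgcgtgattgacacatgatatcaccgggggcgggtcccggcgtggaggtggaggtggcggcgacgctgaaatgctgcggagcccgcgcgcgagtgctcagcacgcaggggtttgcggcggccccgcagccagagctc
Spry2 (chr14:105896770-105897069, minus strand): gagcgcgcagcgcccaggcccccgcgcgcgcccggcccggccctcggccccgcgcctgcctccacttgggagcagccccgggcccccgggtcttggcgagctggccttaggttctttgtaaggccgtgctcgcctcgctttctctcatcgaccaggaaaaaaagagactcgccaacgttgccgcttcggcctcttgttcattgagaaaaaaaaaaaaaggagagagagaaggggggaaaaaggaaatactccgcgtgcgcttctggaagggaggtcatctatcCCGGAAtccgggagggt
The single match to CCGGAA was in Spry2, whereas 14.9% of the 32851 mouse promoters in the same table hold one. The AP-1 site TGANTCA (7.81% of promoters) and the cAMP response element TGACGTCA (1.79%) were found in 0 of the 8 member windows, Etv5 having more than 1, and the serum response element's CArG box (1.63%) was found in the window of Dusp5. Both strands were searched. A match is a description of these letters only, and sites outside the window were not searched.

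Compared with EGFRvIII, the PDGFRA mutants had lower signals for all 9 measured genes, and 4 of them passed the test. The ERK phosphatase genes Dusp4 and Dusp6 and the receptor-proximal inhibitors Spry1 and Spry4 fell, by 0.89 to 1.29 on the log2 scale, while Spry2, Spred1, Spred2, Etv4 and Etv5 did not pass. The contrast weighs the 6 mutant groups equally and was tested with limma over all 11809 genes with Benjamini-Hochberg adjustment at 0.05, which called 8.9% of genes and called 5.35% lower. The median difference of the 9 genes was -0.87, against -0.02 over all genes tested. All 9 had an unadjusted p under 0.05, as did 27.5% of all genes. These are bulk samples, in which fewer cells of a type and less RNA per cell cannot be told apart.

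Dusp6, whose product is the cytoplasmic phosphatase specific for ERK, had log2 signals of 10.52, 10.77 and 10.25 in E7 del, 9.69, 10.02, 10.49, 9.71 and 9.90 in C450 ins, and 9.01, 9.38, 9.64, 9.92 and 9.76 in E10 del. It had 9.65, 10.47, 10.23, 10.63 and 10.36 in D842V, a lowest, median and highest signal of 9.60, 10.48 and 11.08 in E10 del.v2 and of 8.31, 10.07 and 10.26 in V544ins. In EGFRvIII the lowest, median and highest signals were 10.16, 11.03 and 11.45, and the Pdgfra WT array had 11.38. The E10 del arrays all lay below the EGFRvIII arrays, the other 5 mutants overlapped with them, and 35 of the 36 mutant arrays were below the EGFRvIII median. The share of all genes without such overlap in E10 del is not given here. The mutant mean was 10.07 and the EGFRvIII mean 10.97, a log2 difference of -0.89 ± 0.18 (SE), or 1.86-fold lower (limma adjusted p = 0.00315).

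Dusp4, which encodes a nuclear phosphatase of ERK, had log2 signals of 7.86, 5.59 and 4.84 in E7 del, 7.36, 6.37, 5.93, 5.40 and 4.97 in C450 ins, and 6.52, 6.78, 4.89, 5.21 and 5.56 in E10 del. D842V had 7.25, 7.24, 7.95, 7.13 and 6.93, while the lowest, median and highest signals were 4.19, 5.21 and 6.39 in E10 del.v2 and 4.84, 5.18 and 7.88 in V544ins. EGFRvIII arrays spanned 5.72, 7.0 and 9.37 as lowest, median and highest, and the Pdgfra WT array had 6.11. All 5 D842V arrays lay within the EGFRvIII range, the E10 del.v2 and most V544ins arrays were low, and each mutant group overlapped with EGFRvIII. The log2 difference of the mutant mean (5.97) from the EGFRvIII mean (7.20) was -1.23 ± 0.37, or 2.34-fold lower (limma adjusted p = 0.0337). The 3 highest EGFRvIII signals, 7.73, 8.38 and 9.37, were those of replicates 4, 5 and 6. Without these 3 arrays the difference was -0.45 ± 0.40 (limma adjusted p = 0.778). Their removal had to shrink it, since they hold the highest signals. Leaving out any 1 of EGFRvIII replicates 3 to 6 or E7 del replicate 3 also ended the call (differences from -1.44 to -0.92 over all single arrays left out). Array weights ended it as well (-0.89 ± 0.36, limma adjusted p = 0.107).

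Spry4, a Sprouty inhibitor of receptor signalling, had log2 signals of 7.39, 8.74 and 8.41 in E7 del, 8.04, 8.15, 8.76, 8.78 and 7.70 in C450 ins, and 6.06, 6.75, 5.69, 8.25 and 7.61 in E10 del. D842V arrays had 6.73, 8.41, 8.43, 7.90 and 8.05, and the lowest, median and highest signals were 6.40, 8.35 and 9.27 in E10 del.v2 and 6.85, 7.07 and 8.29 in V544ins. EGFRvIII had 8.20, 8.85 and 10.29 as lowest, median and highest, and Pdgfra WT had 8.79. The mutant arrays were nearly all low, with 35 of 36 below the EGFRvIII median and 20 below the lowest EGFRvIII array, although each group overlapped. Spry4 differed by -1.29 ± 0.28 between the mutant mean of 7.82 and the EGFRvIII mean of 9.11, or 2.45-fold lower (limma adjusted p = 0.00417). Of the 4 Spry4 probe sets, 2 passed the filter and were both lower, at -1.29 ± 0.28 and -0.61 ± 0.20, and the mean of all 4 differed by -0.78 ± 0.15.

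Spry1, another Sprouty inhibitor, had log2 signals of 9.0, 10.34 and 8.96 in E7 del, 8.99, 8.87, 9.44, 9.12 and 8.56 in C450 ins, and 5.56, 6.26, 6.0, 8.68 and 8.51 in E10 del. D842V arrays had 6.24, 7.23, 7.15, 6.81 and 7.39, and the lowest, median and highest signals were 6.44, 9.09 and 9.80 in E10 del.v2 and 7.41, 8.00 and 9.88 in V544ins. EGFRvIII had 8.18, 9.70 and 10.33 as lowest, median and highest, and Pdgfra WT had 10.02. All 5 D842V arrays lay below the EGFRvIII arrays, the other mutants overlapped with EGFRvIII, and 3 of the 5 E10 del arrays were among the lowest of all. Of the 54 pairs of gene and mutant group, 2 had no overlap with EGFRvIII, and the share over all genes is not given here. The mutant mean was 8.30 and the EGFRvIII mean 9.52, a log2 difference of -1.22 ± 0.35, or 2.33-fold lower (limma adjusted p = 0.0261). This call was lost when EGFRvIII replicate 3, 5 or 6 was left out (differences from -1.41 to -1.10 over all single arrays left out), and when the neuron and myelin marker level of each array was added as a covariate (-0.94 ± 0.34, limma adjusted p = 0.0895). It was also lost when the 36 mutant arrays were taken as 1 group (-1.19 ± 0.45, limma adjusted p = 0.0742).

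Etv4, an ETS factor gene induced by ERK, had log2 signals of 6.60, 8.12 and 8.08 in E7 del, 6.71, 7.22, 7.17, 7.86 and 6.04 in C450 ins, and 4.28, 3.80, 3.61, 6.71 and 6.33 in E10 del. D842V had 4.11, 6.31, 5.61, 5.25 and 4.83, and the lowest, median and highest signals were 4.59, 7.13 and 7.61 in E10 del.v2 and 4.03, 5.58 and 7.68 in V544ins. EGFRvIII had 5.99, 6.91 and 9.03 as lowest, median and highest, and Pdgfra WT had 8.21. Etv4 was high in E7 del, C450 ins, most E10 del.v2 arrays and EGFRvIII, split in E10 del and V544ins, and below the table median of 4.79 on 7 arrays, which were the 3 low E10 del arrays, E10 del.v2 replicate 2, D842V replicate 1 and V544ins replicates 3 and 4. The log2 difference was -0.87 ± 0.41 (limma adjusted p = 0.159), and each mutant group overlapped with EGFRvIII. Its relative Etv5 had group means from 8.91 in E10 del to 9.87 in E10 del.v2 and a mean of 10.09 ± 0.63 in EGFRvIII (SD, n = 8). The Etv5 difference of -0.67 ± 0.22 had a limma adjusted p of 0.0503, and it passed when each array was centred on its median (-0.71, limma adjusted p = 0.037) and on leaving out each of 13 arrays singly.

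The other 3 genes had smaller differences. Spry2, the remaining Sprouty gene, had group means from 8.86 ± 0.33 in E10 del to 9.51 ± 0.38 in D842V (SD, n = 5 each) and 9.62 ± 0.63 in EGFRvIII (n = 8), and its difference was -0.42 ± 0.17 (limma adjusted p = 0.0993). Spred1 had group means from 9.94 ± 0.35 in E10 del (n = 5) to 10.55 ± 0.18 in E7 del (n = 3) and 10.48 ± 0.37 in EGFRvIII, with a difference of -0.26 ± 0.11 (limma adjusted p = 0.121). For Spred2 the group means ran from 8.70 ± 0.41 in E10 del to 9.10 ± 0.22 in E7 del, against 9.15 ± 0.31 in EGFRvIII, with a difference of -0.30 ± 0.13 (limma adjusted p = 0.13). Differences of these 3 genes were small beside those of Spry1 and Spry4, and their groups overlapped throughout. All 5 Spred1 probe sets were lower in the mutants, from -0.43 to -0.18, and the one at -0.43 ± 0.14, which is not the one used, passed when each probe set was tested on its own (limma adjusted p = 0.0491). That fit called 2185 probe sets in all. Also lower were the 4 of 5 Spred2 probe sets and the 2 Spry2 probe sets that passed the filter.

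**Figure D1:**
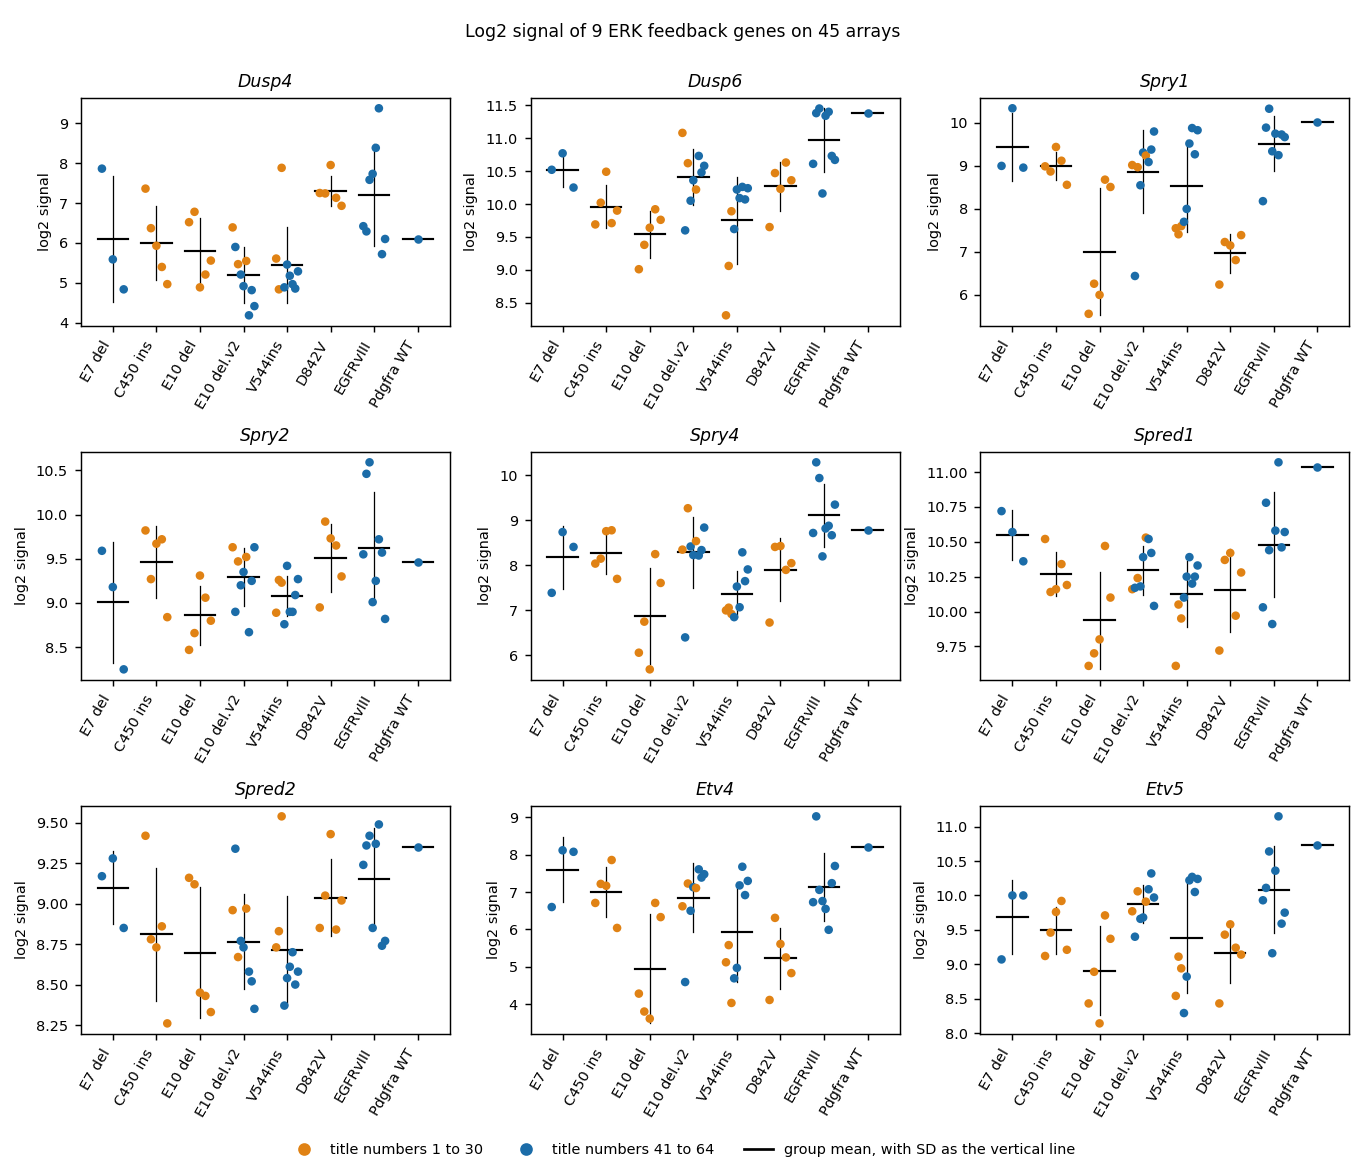
Log2 signal (vertical axes) of the 9 measured genes on 45 arrays, by genotype with the PDGFRA mutants left of EGFRvIII and Pdgfra WT (horizontal axes). Points are arrays coloured by title range, horizontal lines are group means and vertical lines the SD. Spry1 lies between 6.24 and 7.39 in D842V, below all EGFRvIII arrays, whereas Dusp4 lies between 6.93 and 7.95 there.

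Ordered by group mean, EGFRvIII was above all 6 mutants for Dusp6, Spry1, Spry2, Spry4, Spred2 and Etv5, and E10 del was the lowest group for Dusp6, Spry2, Spry4, Spred1, Spred2, Etv4 and Etv5. D842V was lowest for Spry1 and E10 del.v2 for Dusp4, while D842V was highest for Dusp4 and E7 del for Spred1 and Etv4. Of the 54 steps between neighbouring group means, 2 exceeded the larger of the neighbours' SDs. These were V544ins above E10 del for Spry1 (1.53, SD 1.48) and EGFRvIII above E10 del.v2 for Spry4 (0.82, SD 0.78). The other neighbours in these orders did not differ beyond their spread.

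Since all EGFRvIII arrays had titles from 41 to 64, the comparison was repeated within that range and with the range as a block. The upper range holds 15 mutant arrays of E7 del, E10 del.v2 and V544ins, so that C450 ins, E10 del and D842V drop out and its differences are not those of the same mutants. Among these arrays, Dusp4 differed by -1.83 ± 0.42 (limma adjusted p = 0.0433), Spry4 by -1.17 ± 0.30 (0.0708), Dusp6 by -0.67 ± 0.18 (0.0717) and Spry1 by -0.44 ± 0.39 (0.573), so that 1 of the 4 calls held. With the range as a block, Dusp4 (-1.80 ± 0.45, limma adjusted p = 0.0244) and Spry4 (-1.32 ± 0.35, 0.0349) kept their calls and Dusp6 (-0.69 ± 0.23, 0.0946) and Spry1 (-0.85 ± 0.44, 0.307) did not. Without EGFRvIII replicates 4, 5 and 6, Spry4 differed by -1.58 ± 0.34 (limma adjusted p = 0.0152) and was the single gene called, with Dusp6 at -0.89 ± 0.22 (0.0505) and Spry1 at -1.26 ± 0.44 (0.254). Calls over all genes also fell, from 1051 in the main fit to 80 in the upper range, 310 with the block and 54 without EGFRvIII replicates 4, 5 and 6. The sign was negative for all 9 genes in each of these fits.

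**Figure D2:**
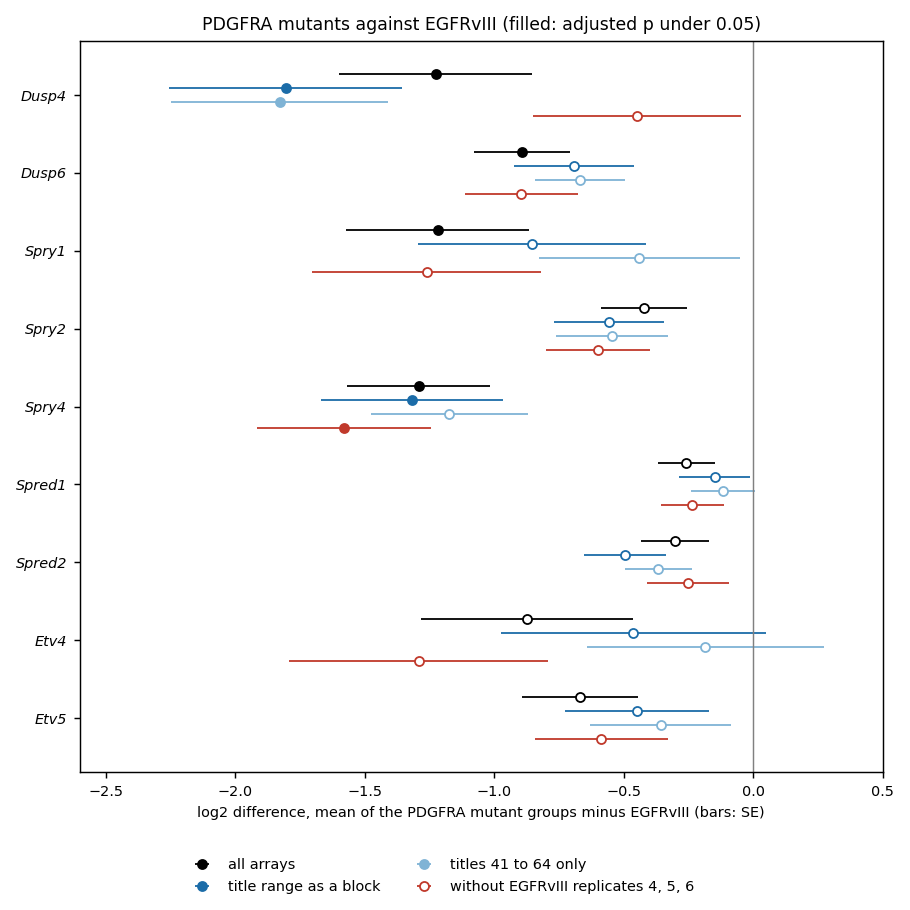
Log2 difference, mean of the PDGFRA mutant groups minus EGFRvIII (horizontal axis, bars are SE), for the 9 genes (vertical axis) under 4 choices of arrays or block, of which titles 41 to 64 hold E7 del, E10 del.v2 and V544ins alone of the mutants. Filled points have a limma adjusted p under 0.05. Spry4 stays between -1.58 and -1.17, whereas Dusp4 ranges from -1.83 to -0.45.

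Each mutant was also set against EGFRvIII. Of the 54 tests, 12 passed, all of them lower in the mutant, and E10 del had 7 of the 12. limma called 0.5% of all genes in E7 del, 0.0254% in C450 ins, 18.4% in E10 del, 7.06% in E10 del.v2, 4.06% in V544ins and 3.14% in D842V. These 6 comparisons share the EGFRvIII arrays.

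In E10 del, Spry1 (-2.52 ± 0.51, 5.72-fold lower), Spry4 (-2.23 ± 0.40, 4.70-fold lower), Etv4 (-2.19 ± 0.59, with 3 of 5 arrays below the table median), Dusp6 (-1.43 ± 0.27), Etv5 (-1.18 ± 0.32), Spry2 (-0.76 ± 0.24) and Spred1 (-0.54 ± 0.16) fell, with limma adjusted p from 0.00192 to 0.0301. Dusp4 at -1.41 ± 0.53 and Spred2 at -0.46 ± 0.19 did not pass (limma adjusted p = 0.0568 and 0.0735). The median of the 9 genes was -1.41, against -0.09 over all genes, and in the other mutants it lay between -0.99 in V544ins and -0.39 in E10 del.v2. The E10 del group was split, however, with Spry1 at 5.56, 6.26 and 6.0 and Etv4 at 4.28, 3.80 and 3.61 on replicates 1, 2 and 3, and Spry1 at 8.68 and 8.51 and Etv4 at 6.71 and 6.33 on replicates 4 and 5. On the same replicates 1, 2 and 3 the 12 measured neuron markers averaged 10.82, 10.72 and 10.42, against 8.71 and 8.45 on replicates 4 and 5, and the 8 oligodendrocyte progenitor markers averaged 8.60, 8.55 and 8.17, against 10.81 and 10.97. The difference between the 3′ and 5′ Actb probe sets, a sign of RNA quality, was 0.70, 0.93 and 0.91 on replicates 1, 2 and 3 and 0.56 and 0.60 on replicates 4 and 5, and its part in the result was not tested. With the neuron and myelin marker level as a covariate, Dusp6 (-1.20 ± 0.28, limma adjusted p = 0.0438) and Spry4 (-1.89 ± 0.41, 0.0299) kept their calls and the other 5 did not (0.0771 to 0.262), with Spry1 at -1.96 ± 0.51, Etv4 at -1.75 ± 0.62, Etv5 at -0.93 ± 0.33, Spry2 at -0.93 ± 0.26 and Spred1 at -0.40 ± 0.16. Spry2, Spred1, Etv4 and Etv5 also lost the call without any 1 of replicates 1, 2 and 3 (limma adjusted p up to 0.113). Without replicates 1, 2 and 3 and E10 del.v2 replicate 2, whose list means were 11.36 and 7.81, all 7 calls were lost, with Spry1 at -0.92 ± 0.52, Spry4 at -1.18 ± 0.43 and Dusp6 at -1.13 ± 0.36 (limma adjusted p from 0.657 to 0.896 for 6 of the genes and 0.902 for Etv4). Only replicates 4 and 5 of E10 del remain in that fit. Replicates 1, 2 and 3 hold the group's lowest signals of these genes except Spry2, so their removal had to shrink those differences. With the title range as a block all 7 calls were lost as well (limma adjusted p from 0.161 to 0.607). With the block Spry4 was at -2.28 ± 0.53 and Spry2 at -0.99 ± 0.32, no smaller than without it, while Spry1 (-1.92 ± 0.67), Etv4 (-1.52 ± 0.78), Dusp6 (-1.10 ± 0.35), Etv5 (-0.82 ± 0.42) and Spred1 (-0.36 ± 0.21) were smaller.

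In V544ins, Dusp4 (-1.76 ± 0.46, 3.38-fold lower), Spry4 (-1.74 ± 0.34, 3.35-fold lower) and Dusp6 (-1.22 ± 0.23, 2.33-fold lower) fell, with limma adjusted p of 0.0217, 0.00293 and 0.00196. These 3 calls held with the title range as a block (differences of -2.07, -1.76 and -1.11), and within the upper range alone they were -2.09, -1.56 and -0.89 (limma adjusted p from 0.051 to 0.0569). In E10 del.v2 the single gene called was Dusp4, at -1.99 ± 0.46 (3.98-fold lower, limma adjusted p = 0.0102). That call was lost within the upper range alone, where the mutants had 0 calls among these genes and 73 over all genes. EGFRvIII replicates 4, 5 and 6 hold the highest Dusp4 signals of that group. Without them Dusp4 lost both calls, at -1.22 ± 0.46 in E10 del.v2 and -0.98 ± 0.46 in V544ins (limma adjusted p = 0.545 and 0.405). The Dusp4 call in V544ins was also lost without EGFRvIII replicate 5 or 6 alone. In D842V the single gene called was Spry1, at -2.56 ± 0.51 (5.88-fold lower, limma adjusted p = 0.00367), with Etv4 at -1.91 ± 0.59 (0.0629), Spry4 at -1.20 ± 0.40 (0.0818) and Dusp4 at 0.10 ± 0.53 (0.943). The Spry1 call was lost with the title range as a block (-1.96 ± 0.67, limma adjusted p = 0.141). No gene passed limma in E7 del, where 1 had an unadjusted p under 0.05 and Etv4 (0.47 ± 0.70) and Spred1 (0.07 ± 0.19) had positive differences, or in C450 ins, where 3 had an unadjusted p under 0.05 and Dusp6 came nearest (-1.0 ± 0.27, limma adjusted p = 0.198). The 1 gene in E7 del, Spry2, ranked 1262 by p among the 11809 genes, and the last of the 3 in C450 ins, Spry4, ranked 1192. Over the 6 comparisons 32 of the 54 tests had an unadjusted p under 0.05, as did 21.6% of tests over all genes.

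**Figure D3:**
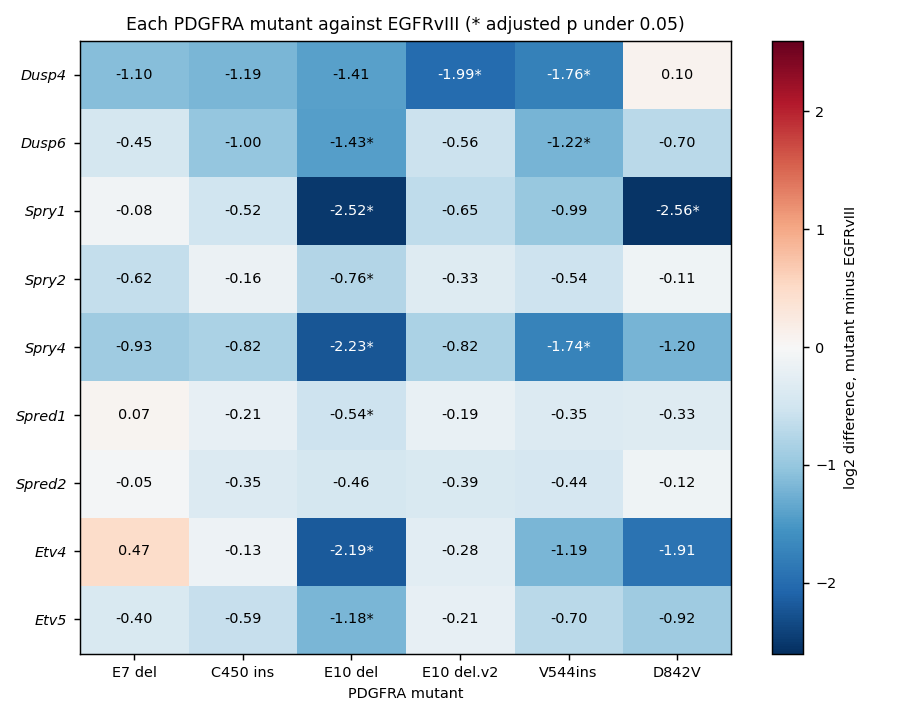
Log2 difference of each PDGFRA mutant (columns) minus EGFRvIII for the 9 genes (rows), with the value in each cell and an asterisk where the limma adjusted p is under 0.05. Red is higher and blue lower in the mutant. E10 del has 7 marked cells, and the largest drops are those of Spry1 in D842V (-2.56) and E10 del (-2.52).

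Among the 6 mutants themselves, Spry1 was the single gene of the 9 that passed, with a moderated F of 6.86 (limma adjusted p = 0.0352). This test called 0.576% of all genes. Spry1 group means were 9.43 ± 0.78 in E7 del (SD, n = 3), 8.99 ± 0.32 in C450 ins (n = 5), 8.87 ± 0.97 in E10 del.v2 (n = 9), 8.53 ± 1.07 in V544ins (n = 9), 7.0 ± 1.48 in E10 del (n = 5) and 6.96 ± 0.45 in D842V (n = 5). Etv4 came next (F = 4.90, limma adjusted p = 0.0854), and Dusp6, Dusp4 and Spry4 had limma adjusted p from 0.128 to 0.158. The Spry1 call was lost on leaving out each of 11 arrays singly (F from 5.86 to 9.45, limma adjusted p up to 0.0833), among them each of E10 del replicates 1, 2 and 3 and D842V replicates 1 to 4. It was also lost with the title range as a block (F = 4.29, limma adjusted p = 0.167).

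Each mutant against the mean of the other 5 gave 0 calls in 54 limma tests of these genes, although 17 had an unadjusted p under 0.05, as did 11.7% of tests over all genes. The shares of all genes called were 0.356% in E7 del, 0% in C450 ins, 0.796% in E10 del, 0% in E10 del.v2, 0% in V544ins and 0.584% in D842V. The nearest values were Spry1 at -1.56 ± 0.43 in E10 del (limma adjusted p = 0.0592) and at -1.60 ± 0.43 in D842V (0.0671). Dusp4 was 1.59 ± 0.46 above the other mutants in D842V (limma adjusted p = 0.0875), with its 5 arrays between 6.93 and 7.95. D842V thus had the lowest mean of Spry1 and the highest mean of Dusp4 among the mutants, neither of which passed in this comparison.

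V544ins and E10 del.v2 are the groups with arrays in both title ranges, and over both groups 0 of the 9 genes passed between ranges (limma called 5.47% of all genes, and Dusp4 and Spred2 had unadjusted p under 0.05, as did 26.8% of all genes). Dusp4 was -0.95 ± 0.35 in the upper range against the lower (limma adjusted p = 0.102). Within V544ins alone, where 29.7% of all genes were called, Dusp6 averaged 10.08 ± 0.24 on 6 upper arrays and 9.09 ± 0.79 on 3 lower ones (SD), a difference of 1.0 ± 0.30 (SE, limma adjusted p = 0.0247). The neuron list averaged between 4.31 and 7.79 on the upper V544ins arrays and 10.60, 10.11 and 10.42 on the lower ones, and over both groups all 12 neuron markers were lower in the upper range, 4 of them called, with a median of -2.21. Their part in the Dusp6 result was not tested. The same difference in E10 del.v2 was -0.34 ± 0.30 for Dusp6, and the difference between the groups, 1.33 ± 0.43, did not pass (limma adjusted p = 0.0914), with 0.0339% of all genes called. V544ins was also divided within the upper range, with Etv4 at 4.69 and 4.97 and Etv5 at 8.29 and 8.82 on replicates 4 and 5. On replicates 6 to 9 Etv4 lay between 6.92 and 7.68 and Etv5 between 10.05 and 10.27. The progenitor list mean was 9.94 and 10.06 on replicates 4 and 5 and 11.19 to 11.40 on replicates 6 to 9, the astrocyte list mean 7.41 and 8.47 against 9.59 to 10.10, and the myelin list mean 10.36 and 10.40 against 8.83 to 9.42.

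The single Pdgfra WT array allows no test. How often it lay above all mutant arrays over all genes was not counted, so the counts below describe these genes only. Its signals of Dusp6 (11.38), Spred1 (11.04), Etv4 (8.21) and Etv5 (10.74) were above those of all 36 mutant arrays, and its Spry1 signal of 10.02 was exceeded by 1 mutant array. Dusp4, at 6.11, was exceeded by 12 mutant arrays, Spry2 (9.46) by 11, Spred2 (9.35) by 3 and Spry4 (8.79) by 2. For Dusp6, 3 of the 8 EGFRvIII arrays were above it, and for Etv4, Etv5, Spry1 and Spred1 1 of them was. For Dusp4 6 of the 8 EGFRvIII arrays were above it, for Spry2 and Spry4 5 each and for Spred2 4.

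Across the 45 arrays the genes varied together in sets, which were drawn after the correlations were seen. Dusp6, Spry1, Spry4, Spred1, Etv4 and Etv5 correlated with each other in all 15 pairs, with Pearson's r from 0.58 to 0.88 and Spearman's rho from 0.56 to 0.83, and r from 0.54 to 0.86 without the 2 arrays farthest out. With group means removed r was 0.43 to 0.82. Within single groups the 15 pairs had r from 0.44 to 0.93 in V544ins (n = 9), from 0.05 to 0.95 in E10 del.v2 (n = 9) and from -0.30 to 0.87 in EGFRvIII (n = 8), where Etv4 and Etv5 gave the negative value. Spearman's rho ran from 0.60 to 0.92 in V544ins, from -0.17 to 0.87 in E10 del.v2 and from -0.43 to 0.86 in EGFRvIII. In E10 del.v2 Spry1 and Spry4 had r of 0.86 but rho of 0.20, and replicate 2 lay far below the other arrays for both genes. The closest pair was Spry1 and Etv4 (r = 0.88, and 0.82 with group means removed). Dusp4 and Spred2 made a pair of their own (r = 0.75, rho = 0.78, and 0.73 with group means removed), and their r with the set of 6 ran from -0.26 to 0.31, or from -0.49 to 0.06 with group means removed. Spry2 had r from 0.28 to 0.58 with the others, highest with Spry4 (0.58) and Dusp6 (0.54), so that it is not sharply set apart from the 6. These correlations are descriptions, since the signals of an array share its RNA, its cell content and its normalisation, and arrays of a group share a genotype.

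**Figure D4:**
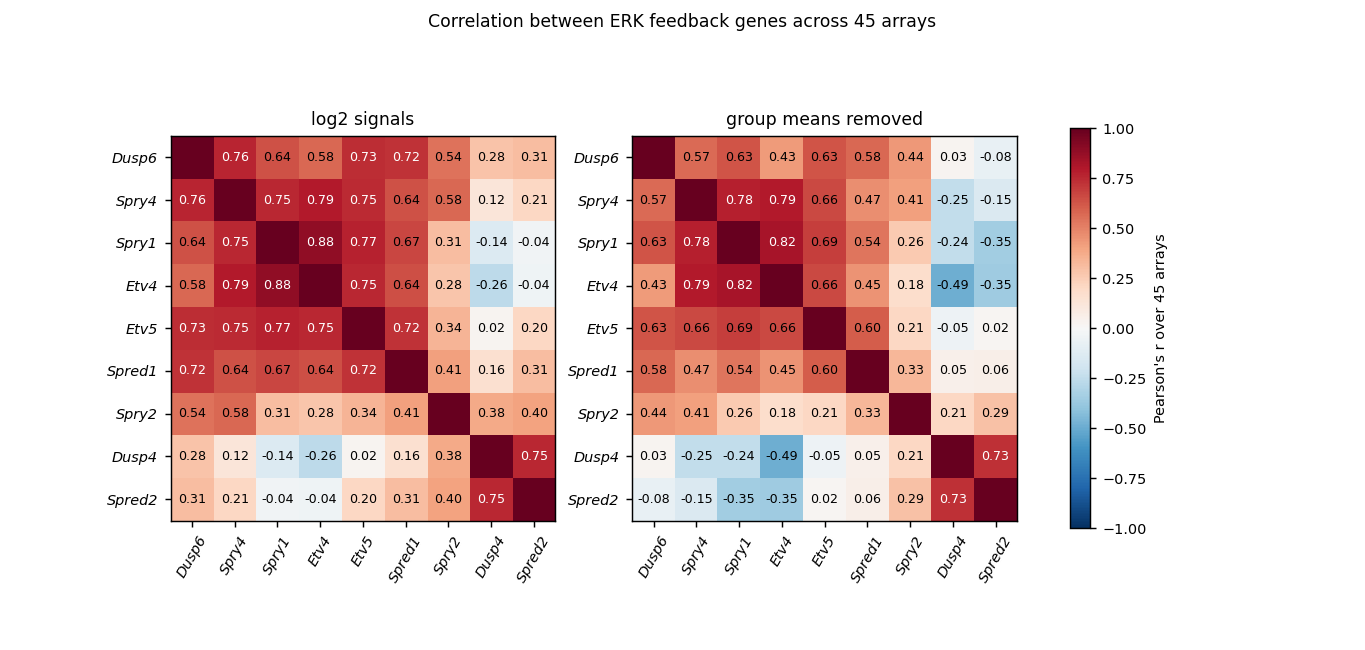
Pearson's r between the 9 genes over 45 arrays, from the log2 signals (left) and after removing each genotype's mean (right), with red for positive and blue for negative values. The 6 genes at upper left correlate with r from 0.58 to 0.88, and Dusp4 and Spred2 form a pair at lower right with r of 0.75.

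Among all other named genes, those most alike over the 45 arrays were, for Spry1, the store-operated calcium channel gene Orai1 (r = 0.90, and 0.88 with group means removed) and Adamtsl3 (0.89 and 0.85). Orai1 was also the nearest to Etv4 (0.90 and 0.85), followed by the endocytic adaptor gene Hip1 (0.88 and 0.84). Spry4 was nearest to the metalloprotease gene Adam12 and to Cd276 (both 0.85, and both 0.84 with group means removed), and Dusp6 to the CDK inhibitor gene Cdkn2b (0.80 and 0.64) and to the transcription factor gene Klf3 (0.78 and 0.77). Dusp4 was nearest to the kinase gene Dyrk3 (0.79, and 0.90 with group means removed) and to B4galt5 (0.78 and 0.73). Etv5 was nearest to St3gal4 (0.80) and Golim4 (0.78), Spred1 to Mark3 (0.80) and Fnbp4 (0.79), Spred2 to Nck2 (0.70) and Osbpl6 (0.67), and Spry2 to Clic5 (0.70) and Rasl11a (0.69).

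The genes were also set beside marker genes of other cells. Spry1 had an r of -0.52 with the mean of 12 neuron markers (rho = -0.59, -0.57 without the 2 arrays farthest out, and -0.44 with group means removed) and of 0.56 with the mean of 8 oligodendrocyte progenitor markers (rho = 0.66, 0.69 and 0.69 likewise), a list that includes Pdgfra itself. Etv4 had -0.43 with the neuron list and 0.65 with the progenitor list (rho = 0.82, 0.74 without the 2 arrays, and 0.76 with group means removed), and Spry4 -0.40 and 0.49 (0.74 with group means removed). Dusp4 had the opposite signs, at 0.23 with neurons (0.52 with group means removed) and -0.50 with progenitors. Spred2 was at 0.26 with neurons (0.57 with group means removed) and -0.33 with progenitors.

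The neuron list mean ranged from 4.98 to 8.83 in E7 del, 5.46 to 10.56 in C450 ins, 8.45 to 10.82 in E10 del, 7.51 to 11.36 in E10 del.v2, 4.31 to 10.60 in V544ins and 5.49 to 10.60 in D842V, and from 4.84 to 10.35 in EGFRvIII. The progenitor list mean ranged from 9.92 to 11.57 in E7 del, 9.97 to 11.20 in C450 ins, 8.17 to 10.97 in E10 del, 7.81 to 11.38 in E10 del.v2, 9.73 to 11.40 in V544ins and 9.35 to 10.42 in D842V, and from 6.83 to 11.36 in EGFRvIII. The lowest EGFRvIII values, 7.89, 6.83 and 9.04, were those of replicates 4, 5 and 6, the arrays with the highest Dusp4 in that group. Against EGFRvIII, limma called 0 of the 12 neuron markers and 0 of the 8 progenitor markers in the mutants, with 0 and 2 at an unadjusted p under 0.05. All 12 neuron markers (median 0.94) and 7 of the 8 progenitor markers (median 0.39) had positive differences. Of 11 myelin markers 10 had positive differences and 0 were called (median 0.75, at least 4 at an unadjusted p under 0.05), and of 12 microglia and macrophage markers 11 had negative differences and 1, the Fc receptor gene Fcgr3 (-0.91 ± 0.27), was called lower (median -0.31). No astrocyte, endothelial or fibroblast and pericyte marker was called by limma, with medians of 0.12, -0.30 and -0.06 and 1, 1 and 2 at an unadjusted p under 0.05. The covariate fits for Spry1 and for E10 del are given above, and the part of progenitor cells in the differences was not tested.

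**Figure D5:**
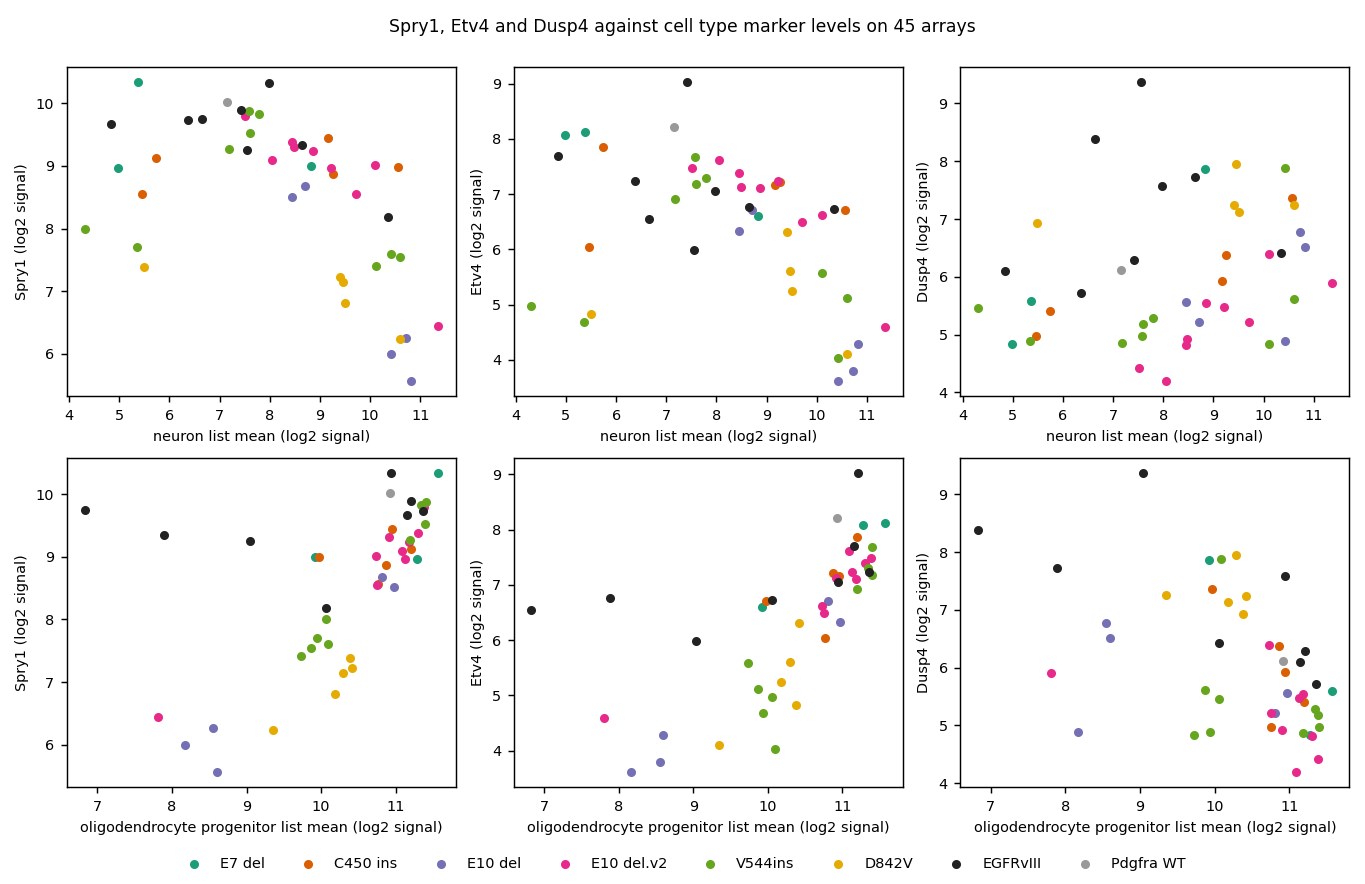
Log2 signals of Spry1, Etv4 and Dusp4 (vertical axes) against the mean log2 signal of 12 neuron markers (top) and 8 oligodendrocyte progenitor markers (bottom) on 45 arrays, coloured by genotype. Spry1 and Etv4 lie low on the E10 del and E10 del.v2 arrays with neuron means from 10.42 to 11.36. C450 ins replicate 1, at a neuron mean of 10.56, has Spry1 at 8.99 and Etv4 at 6.71. D842V replicate 5, at a neuron mean of 5.49, has Spry1 at 7.39 and Etv4 at 4.83. The highest Dusp4 signals, 9.37 and 8.38, are those of EGFRvIII replicates 6 and 5.

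Other genes of the pathway were taken from 4 lists. Of 12 measured further phosphatases and negative regulators 0 passed in the mutants against EGFRvIII by limma, with a median of -0.29 and 3 at an unadjusted p under 0.05. The cytoplasmic ERK phosphatase gene Dusp7 (0.46 ± 0.17, limma adjusted p = 0.0802), Dusp8 (0.67 ± 0.28) and Spry3 (0.62 ± 0.27) were those 3, with positive differences. Of 7 other ETS factors 1 passed, the ternary complex factor gene Elk3, at -1.47 ± 0.27 (limma adjusted p = 0.0011). Of 14 further ERK-induced genes 4 fell and 0 rose, with a median of -0.39. They were the AP-1 gene Fosl1 (-1.64 ± 0.38), the early response gene Ier3 (-1.26 ± 0.32), the urokinase receptor gene Plaur (-1.25 ± 0.37) and the ephrin receptor gene Epha2 (-1.12 ± 0.24). Of 11 cascade genes 1 fell, the adaptor gene Shc1 (-1.04 ± 0.30, limma adjusted p = 0.0254), and the median of that list was 0.14.

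Elk3 was called lower in E10 del (-2.00 ± 0.39), E10 del.v2 (-1.53 ± 0.33), V544ins (-1.55 ± 0.33) and D842V (-2.00 ± 0.39) against EGFRvIII. E10 del had the most calls in these lists, with 3 of 12 negative regulators, 3 of 7 ETS factors and 7 of 14 ERK-induced genes lower, and among the cascade genes Shc1 lower (-1.53 ± 0.43) and Map2k1 (0.90 ± 0.25), Araf (0.87 ± 0.30) and Braf (0.73 ± 0.27) higher. In D842V 2 ERK-induced genes were called, both higher, the immediate early genes Fos (1.49 ± 0.43) and Egr2 (1.65 ± 0.47, limma adjusted p = 0.0453 each). Egr2 was also called in the moderated F test among the mutants (F = 7.28, limma adjusted p = 0.0287) and in D842V against the other 5 mutants (2.28 ± 0.41, limma adjusted p = 0.00261). In the same D842V arrays Dusp4 was at 0.10 ± 0.53 and Spry1 at -2.56 ± 0.51 against EGFRvIII.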

How the data were processed

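Biotin-labelled RNA was hybridised to Affymetrix 3' IVT arrays, per the labels. The deposited values are log2 signals that the authors made with RMA, per the submitters' processing notes, whose version and settings were not given in the sources used here. They were used as deposited. Of 45141 probe sets, 28898 had 1 gene symbol, 551 had several and 15692 had none in the platform annotation. Each gene was represented by its brightest probe set, by mean signal. Genes above the table median (4.79) on at least 3 arrays were kept. limma 3.58.1 in R 4.3.3 fitted the means of the 8 groups on the log2 scale, with p-values adjusted over 11809 genes by Benjamini-Hochberg and called at 0.05. The fit was tested on simulated data. The number of arrays limits precision. The members, gene lists and tests were chosen with earlier results of these data known. Genes were named as the 10 members, up to 4 genes of smallest p in each other list per comparison, Pdgfra and Egfr, and the 2 genes most correlated with each member. Alternatives covered filters, probe set rules, scaling, priors, array weights, marker covariates, title ranges and arrays left out. Testing each probe set of a member on its own was added after the data were seen.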

Additional observations from a re-analysis of the deposited data

Results flagged for a closer look

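Of 54 gene and group combinations with 4 to 10 arrays, 5 held an array whose gap to its nearest neighbour was large for the range of its group by Dixon's criterion. Chance flags about 1 in 20 such groups, and the 5 lay on 2 arrays. E10 del.v2 replicate 2 had log2 signals of 6.44 for Spry1 (the other 8 arrays lay between 8.55 and 9.80), 6.40 for Spry4 (8.22 to 9.27) and 4.59 for Etv4 (6.50 to 7.61). The same array had a neuron list mean of 11.36, a progenitor list mean of 7.81 and a difference of 1.19 between the 3′ and 5′ Actb probe sets, the highest of the 45 arrays. V544ins replicate 3 had 7.88 for Dusp4, where the other 8 arrays lay between 4.84 and 5.61, and 9.54 for Spred2, where they lay between 8.37 and 8.83. Dusp4 and Spred2 were thus both high on 1 array, while Spry1 (7.60) and Etv4 (4.03) were low on it.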

How the results depend on the processing

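Of 379 single-gene values under other settings, 326 kept direction and side of the threshold, 42 lost the call, 11 gained it and 0 reversed. Some of these settings could not change a difference, so these counts do not measure robustness. Changing the filter or leaving out the Pdgfra WT array left each difference as it was, as did averaging probe sets for genes with 1 probe set. PDGFRA mutants against EGFRvIII called 4 of the 9 genes, against 1 without EGFRvIII replicates 4, 5 and 6, 2 with the title range as a block, 1 from the upper title range alone, and 2 to 6 when single arrays were left out. Over all genes this comparison called 1051, against 678 with the marker covariate, 54, 310 and 80 in those 3 fits, and 185 to 2239 with single arrays left out. Each mutant against EGFRvIII gave 12 calls in 54 tests, against 20 with array weights, 7 without the 3 EGFRvIII arrays, 7 without the 4 E10 arrays of high neuron and low progenitor levels (replicates 1 to 3 of E10 del, replicate 2 of E10 del.v2), 5 with the block, 0 within titles 41 to 64 and 8 to 15 with single arrays left out. All-gene calls there were 3919, and 14184, 430, 1599, 1154 and 73 in those fits, 1846 with the marker covariate and 1196 to 7715 with single arrays left out. Differences among the mutants called 1 gene, and 9 with array weights, 0 with the block, 0 within titles 41 to 64 and 0 to 3 with single arrays left out. All-gene calls were 68, and 10855 with array weights, 308 without the 3 EGFRvIII arrays, 240 with the marker covariate, 36 without the 4 arrays, 14 with the block, 0 within titles 41 to 64, 223 within titles 1 to 30 and 4 to 141 with single arrays left out. Each mutant against the other 5 gave 0 calls, and 34 with array weights, 1 without the 3 EGFRvIII arrays, 2 without the 4 arrays, 1 from the mutant arrays alone and 0 to 5 with single arrays left out. All-gene calls were 205, and 28567, 713, 224 and 523 in those fits, 675 with the covariate, 314 with no filter, 89 with the block and 87 to 1771 with single arrays left out. The title range comparison gave 0 calls, and 7 with array weights, 2 without the 4 arrays and 0 to 2 with single arrays left out, while its all-gene calls were 646, and 5308, 3617, 981 with quantile normalisation, 0 with the covariate, 0 over all 45 arrays and 42 to 3617 with single arrays left out. Array weights ranged from 0.177 to 10.1, and the cause of their effect was not tested. Testing each probe set on its own, chosen after seeing the data, gave 4 calls among the probe sets used and 1 more, for a Spred1 probe set that is not used. Over all probe sets kept, that fit called 2185. No paired analysis was possible because the labels give the groups no shared replicate numbers.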
